A study of Caenorhabditis elegans with 2 samples.

Results

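In the deposited list of CHD-3 binding sites of adult Caenorhabditis elegans, 488 of 4940 peaks, or 9.88%, lay in the centre of chromosome V. They were chosen by position alone, as peaks of V with a midpoint from base 5900000 to base 16550000 of WormBase release WS220, a stretch of 10.65 Mb that recombines weakly. The sites were mapped by chromatin immunoprecipitation and sequencing (ChIP-seq), in which DNA bound by a protein is recovered with an antibody, sequenced and placed on the genome to find where its reads pile up. The series labels 1 ChIP library, made with a rabbit polyclonal antibody against CHD-3, and 1 library of input DNA. Both come from hermaphrodites of the strain fem-2(b245), genotype fem-2(b245)III, which carry a mutant allele of a sex determination gene, and the culture temperature was given as 20 °C. No wild-type strain is among the samples, so the fem-2 allele is shared by everything described. The stage label is a young adult with a germline, whereas the growth protocol tells of gravid adults. The list of peaks was deposited with the ChIP sample, and from which library or libraries it was called is not stated. No values of the input and no second list of peaks were used here.

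CHD-3 is 1 of the C. elegans relatives of Mi-2, the ATPase that moves nucleosomes in the NuRD complex, where remodelling is joined to the removal of acetyl groups from histones. Such complexes are best known for keeping genes silent that belong to another cell type or stage. Worm chromosomes have no single centromere. Each autosome has instead a centre that rarely recombines and is rich in broadly used, conserved genes, between arms that recombine often and hold more repeats and, on V, many members of the chemoreceptor families. Whole worms were used, so a peak seen in few cells with much CHD-3 and one seen in many cells with little cannot be told apart.

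Each peak comes with a first base, a last base and a score. The authors' score has no named scale in the file. It started at 50, and 3100 was a value at which many peaks were tied, so it served here for ranks and medians within the list. The read depth is unknown. Gene positions and base sequence of WS220 were not used here, so no gene and no motif is assigned to a peak. Only 1 list of peaks was at hand, so no difference between its parts was tested. A range in brackets after a share is its 95% exact Clopper-Pearson interval, which covers counting error alone, as if peaks were independent of each other.

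The centre held 45.8 peaks per Mb, and their number changed greatly along it. In its 21 full bins of 500 kb the median was 20 peaks, with an interquartile range of 16 to 27. The fullest bin was the first, from 5900000 to 6400000, with 67 peaks. Of these, 31 belonged to a single run of close peaks, called the dense run here, and 36 remained without it. The next fullest bins were 13900001 to 14400000 with 37 peaks and 10400001 to 10900000 with 35. The emptiest were neighbours, with 7 peaks from 11900001 to 12400000 and 9 from 12400001 to 12900000. In all, 5 bins had 30 or more peaks and 2 had under 10. Leaving out the dense run lowered the density of the whole centre to 42.9 peaks per Mb and left the median bin at 20.

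**Figure D1:**
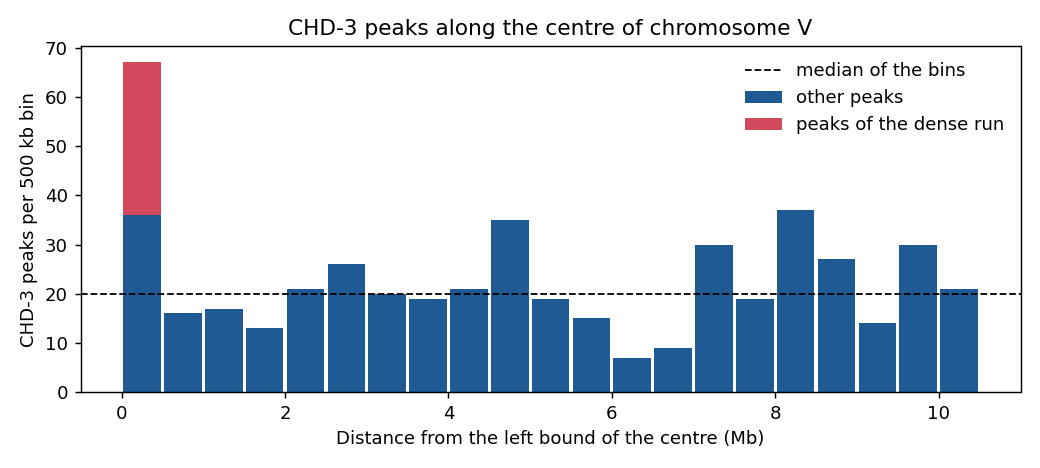
Number of CHD-3 peaks in each full 500 kb bin of the chromosome V centre (y axis) against distance from its left bound in Mb (x axis), with the peaks of the dense run stacked in red and the median of 20 peaks as a dashed line. The first bin reaches 67 peaks, 31 of them in the dense run, and the bins starting 6 and 6.5 Mb from the bound hold 7 and 9.

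Peak numbers also differed on a larger scale. Cut into equal stretches of 3.55 Mb, the centre had 187 peaks on the left, 124 in the middle and 177 on the right, or 52.7, 34.9 and 49.9 per Mb. Without the dense run the left stretch had 156 peaks, 43.9 per Mb, so that the right stretch was then the fullest. Counted as regions, with peaks less than 500 bp apart joined, the numbers were 108 on the left, 104 in the middle and 124 on the right, so the left and the middle were then nearly equal. The peaks differed in kind as well as in number. On the left 31 peaks, 16.6%, were at least 1000 bp wide, called broad here, against 10 in the middle and 12 on the right, 8.06% and 6.78%. The left stretch without the dense run still had 24 broad peaks, 15.4% of its members. The part of the sequence inside peaks was 3.47% on the left, 1.84% in the middle and 2.25% on the right, and the left value was 2.91% without the dense run. The right stretch thus had more peaks per Mb than the middle, near the 49.3 of the whole list. Its peaks were narrower, with a median width of 324 bp against 391 bp on the left and 354.5 bp in the middle.

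Among the bins, the median width ran from 245 to 492 bp and the median score from 87.1 to 185.0. The lowest medians of both measures fell in the same neighbouring bins on the right, 15400001 to 15900000 with 30 peaks (265.5 bp, score 91.8) and 15900001 to 16400000 with 21 peaks (245 bp, score 87.1). The highest median width belonged to the emptiest bin, where it rests on 7 peaks. The highest median score was that of the first bin, and it was 136.4 there once the dense run was left out. In 3 bins there was no broad peak, among them the emptiest and the one from 12900001 to 13400000 with 30 peaks.

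**Figure D2:**
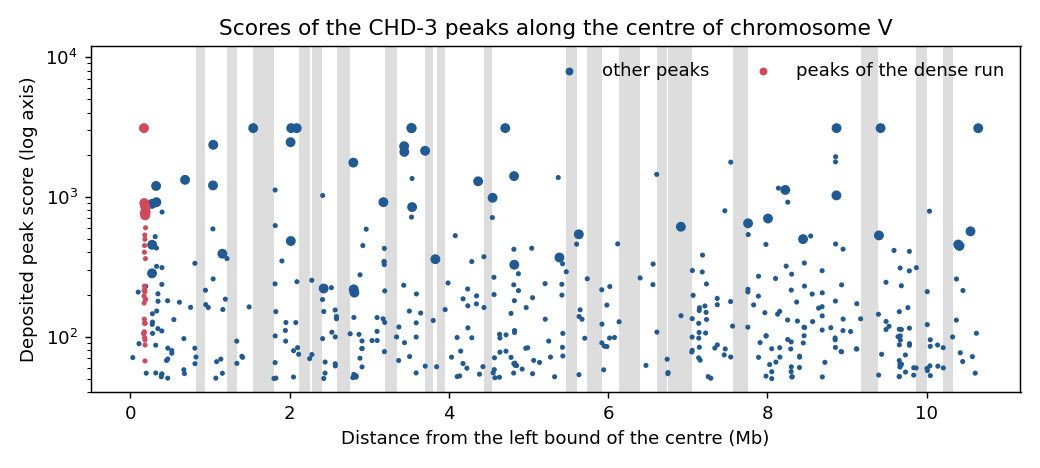
Deposited score of each of the 488 peaks (y axis, log scale) against the distance of its midpoint from the left bound of the centre in Mb (x axis), with broad peaks as large dots, the dense run in red and the 20 stretches of at least 100 kb without peaks in grey. Scores tied at 3100 lie at several places, and most of the broad peaks are in the left part.

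Most CHD-3 sites of the centre were narrow. The median width was 357.5 bp (order-statistic 95% interval 331 to 386 bp), the quartiles were 245.75 and 625.75 bp, and the extremes 138 and 8260 bp. Peaks under 200 bp numbered 52, those from 200 to under 500 bp 273, and those from 500 to under 1000 bp 110. The 53 broad peaks were 10.9% of the members (8.24 to 14.0%) and made up 36.4% of the 268.3 kb inside peaks. Of these, 42 were under 2000 bp wide and 11 were wider. The 5 widest alone held 9.72% of the covered length. Without the dense run 46 broad peaks were left among 457, 10.1% (7.46 to 13.2%), and the median width was 355 bp.

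The median score was 126.6, with an interquartile range of 77.2 to 258.8, and 260 members, 53.3% (48.7 to 57.8%), reached the median score of the whole list, 116.0. Wider peaks had the higher scores. The median score was 56.5 for the 52 peaks under 200 bp, 130.4 for the 139 from 300 to under 500 bp, 293.2 for the 110 from 500 to under 1000 bp and 771.8 for the 42 from 1000 to under 2000 bp. Of the 11 peaks of 2000 bp or more, the lowest scored 1206.4 and the median was at the tie of 3100. Across the 488 members Spearman's rho of score and width was 0.88. This is a description, since both values of a peak come from the same reads and neighbouring peaks are not independent.

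A few members departed from that relation, and they were picked after their values were seen. A score of 1000 or more was given to 10 peaks narrower than 1000 bp. The narrowest of these, 9438728 to 9439035, measured 308 bp and scored 1352.6, where peaks of 300 to under 500 bp had a median of 130.4. It ended 1 bp short of the next peak. Another, 13440166 to 13440790, measured 625 bp and scored 1769.6, and the peak from 12509911 to 12510517, 607 bp wide with a score of 1447.1, had no neighbour closer than 2446 bp. In the other direction, 4 broad peaks scored under 300, the lowest of them 206.2 at 8713916 to 8714976, which was 1061 bp wide.

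**Figure D3:**
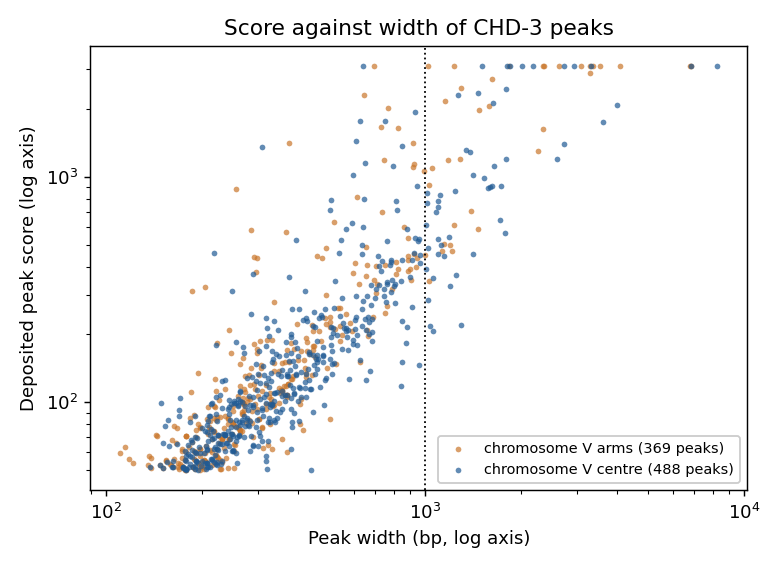
Deposited score (y axis, log scale) against peak width in bp (x axis, log scale) for the 488 peaks of the chromosome V centre (blue) and the 369 of its arms (orange), with a dotted line at 1000 bp. The clouds lie over each other, scores climb with width in both, and the flat row at the top is the tie at 3100.

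The 10 members with the highest score were all tied at 3100, so that width alone set their order. The widest was the peak from 7916818 to 7925077, 8260 bp long, followed by 10605659 to 10612490 with 6832 bp. Next came 9432179 to 9435509 with 3331 bp and 9428367 to 9431306 with 2940 bp, which are close neighbours with a peak of 820 bp between them. The others were 7988837 to 7991566 (2730 bp), 15320664 to 15322850 (2187 bp), 6070962 to 6072975 (2014 bp), 7443044 to 7444891 (1848 bp), 14768007 to 14769813 (1807 bp) and 6088744 to 6089385 (642 bp). The last was the only tied member below 1000 bp. It and the peak at 6070962 belong to the dense run. Of the 10, 6 had another peak less than 500 bp away and 4 had none. The 5 widest members included 3 of these and the peaks from 9339758 to 9343777, 4020 bp wide with a score of 2094.9, and from 8699292 to 8702925, 3634 bp wide with a score of 1756.3.

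The dense run reached from 6070782 to 6094654, and its 31 peaks filled 83.4% of 23.9 kb. It made up 0.224% of the length of the centre but 6.35% of its peaks and 7.42% of the sequence inside them. The 30 spaces between its peaks measured 3 to 393 bp with a median of 90 bp, and 9 of them were under 50 bp. Widths ran from 171 to 2014 bp with a median of 510 bp and 7 broad peaks. Scores ran from 67.0 to 3100 with a median of 216.7, and 25 of the 31 reached the median of the list. High and low scores stood side by side throughout the run. The tied peaks were the second one, 2014 bp wide, and the peak from 6088744, 642 bp wide. The highest score below the tie was 902.4, and 8 of the 31 peaks, the tied ones included, scored at least 700. The lowest scores belonged to a group of adjoining short peaks from 6085225 to 6085896, which measured 232, 187 and 191 bp and scored 94.7, 67.0 and 87.1.

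**Figure D4:**
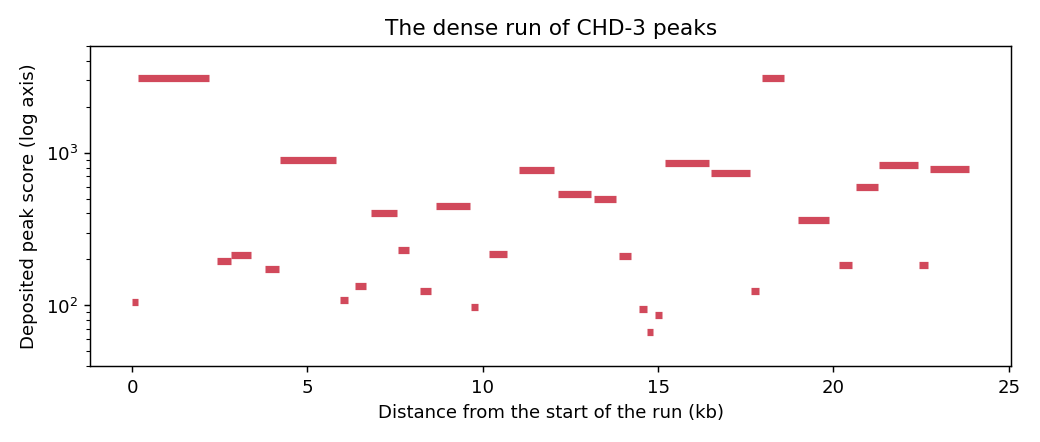
The 31 peaks of the dense run drawn to scale as horizontal bars from first to last base, by distance from the start of the run in kb (x axis) and deposited score (y axis, log scale). Both tied peaks at 3100 stand far above the rest, of which the highest is at 902.4, and the spaces between bars are at most 393 bp.

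The ends of the dense run depend on the 500 bp that define it. On its left a peak from 6070059 to 6070279 (score 106.1) lay 502 bp away, and on its right one from 6095310 to 6095737 (score 229.0) lay 655 bp away. Joining peaks less than 1000 bp apart took in both and gave 33 peaks over 25.7 kb, with 80.0% of the sequence in peaks. Joining at 2000 bp gave the same 33. Beyond them the list was empty for 59904 bp on the left and for 5065 bp on the right. The sequence beneath this run, its copy number in the worm and its signal in input DNA were not examined here.

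No other run of the centre came near this size. With peaks joined when less than 500 bp apart, the 488 members formed 336 regions, of which 256 were single peaks, 48 had 2 peaks, 23 had 3, 5 had 4 and 4 had 5 or more. Besides the dense run, those of 5 or more were short. The first, 7718147 to 7720928, held 5 peaks over 2.78 kb with scores of 65.2 to 1118.3. The second, 15555777 to 15557632, held 6 narrow peaks of 138 to 459 bp over 1.86 kb, and none of them scored above 150.8. The third, 15682333 to 15684697, held 5 peaks over 2.37 kb, 96.8% of it covered, with scores of 86.7 to 407.1. Joining at 1000 bp gave 10 runs of 5 or more and joining at 2000 bp gave 13. The largest of the latter after the dense run held 9 peaks from 10714064 to 10725851.

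Some long stretches were nearly solid although listed as several peaks. Of the runs of 2 to 4 peaks, 7 were longer than 3 kb, a limit set after seeing the values, and in 6 of these at least 95% of the sequence was inside peaks. With few peaks, spaces under 500 bp and such lengths, a high share is partly fixed by these limits. The longest of the 7, 7915734 to 7925077, joined a peak of 1022 bp to the widest peak of the centre over 9.34 kb. The next, 9428367 to 9435509, joined 3 peaks over 7.14 kb, 2 of them tied at 3100 and 1 scored 716.1. The run from 9338476 to 9344241 joined 3 peaks over 5.77 kb, 99.5% of it covered, with scores of 90.5 to 2302.2. Over the centre 50 of 487 neighbouring pairs were less than 50 bp apart and the smallest distance was 1 bp. Among the 48 runs of exactly 2 peaks the median widths were 600 bp for the wider and 284 bp for the narrower partner, and the wider one had the higher score in 41. Partners were sorted by width, and scores rise with width across all members, so these values show nothing particular to pairs. The wider partner was on the left in 20 of the 48.

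Narrow and broad peaks occurred with and without close neighbours. Among the 256 single peaks the median width was 337 bp, the median score was 116.9 and 25 peaks, 9.77%, were broad. The 201 peaks in runs other than the dense one had medians of 379 bp and 125.5, with 21 broad ones, 10.4%. Of all members, 85 had no neighbour within 10 kb on either side. Their medians were 336 bp and 118.5, with 9 broad peaks and 2 tied at 3100.

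Long parts of the centre had no peak. Between neighbouring members the median distance was 3.52 kb, but 20 stretches of at least 100 kb together took up 3064 kb, 28.8% of the centre. The longest reached from 12038881 to 12302279, 263.4 kb, between peaks scored 127.7 and 262.7. The second, from 7444892 to 7704656, measured 259.8 kb. On its left stood the 1848 bp peak tied at 3100, itself 50155 bp from its other neighbour, and on its right a peak of 194 bp scored 50.2, close to the lowest score of the list. The next were 15071648 to 15294789 with 223.1 kb, 13463378 to 13654394 with 191.0 kb and 11638998 to 11820472 with 181.5 kb. Starting with the longest, 4 stretches of at least 100 kb followed each other from 12038881 to 12951245. They took up 75.4% of these 912.4 kb, which held 11 peaks with scores of 54.3 to 1447.1. This zone was picked after the values were seen. It begins and ends with an empty stretch, which raises that share by construction. Whether reads can be placed uniquely in the empty stretches was not examined here.

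Set beside the arms of the same chromosome, the centre had more peaks per Mb. The arms, taken from base 1 to the lower bound and from the upper bound to the last base of the last peak of V, 20881846, held 369 peaks over 10.2 Mb, or 36.1 per Mb. The left arm had 33.2 and the right arm 39.9 per Mb. The centre thus had 56.9% of the 857 peaks of V (53.6 to 60.3%) on 51.0% of its span, a density ratio of 1.27 (1.11 to 1.46 from the same interval). Peaks come in groups, so that interval is too narrow. Without the dense run the ratio was 1.19, and counted in regions joined at 500 bp it was 1.14. Among peaks at or above the median score of the list it was higher, at 1.496, with the dense run kept. The centre had 260 such peaks with the run and 235 without it, against 167 in the arms. The bounds mattered as well, because the dense run lies close to the lower one. With each bound moved 0.5 Mb inwards, which puts the run in the arm, the ratio was 1.05, and with the run left out in addition it was 1.13. For the whole list the density was 49.3 peaks per Mb and for the X chromosome 43.5, so the centre of V was below the list as a whole. Its place relative to X was not stable. The centre without the dense run had 42.9 peaks per Mb, and in regions joined at 500 bp it had 31.5 per Mb against 31.8 on X.

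The centre also had the wider median peak, by 60.5 bp, with 357.5 bp against 297 bp in the arms. The difference was 58 bp without the dense run. It was 35.5 bp with each bound moved 0.5 Mb inwards, and 42.5 bp with the run left out in addition. The median width of the whole list, 327.5 bp, lay between centre and arms. Shares of broad peaks were closer, 10.9% against 9.21% (6.47 to 12.6%), and their intervals overlapped. The median score was 126.6 in the centre and 106.7 in the arms, a difference of 19.95, or 15.2 without the dense run. It was 4.94 with each bound moved 0.5 Mb inwards. Among peaks at or above the median score of the list it turned to -67.8, but those peaks were selected on the score that is compared. The third quartile of the score was 258.8 in the centre and 238.8 in the arms. The 90th percentile was 712.1 in the centre and 830.2 in the arms, where it was 1124.4 on the left and 496.3 on the right, so the arms lay on both sides of the centre. At 3100 there were 10 of 488 peaks in the centre, 4 of 196 in the left arm and 10 of 173 in the right arm. On the X chromosome the median width was 348 bp and the median score 116.7.

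**Figure D5:**
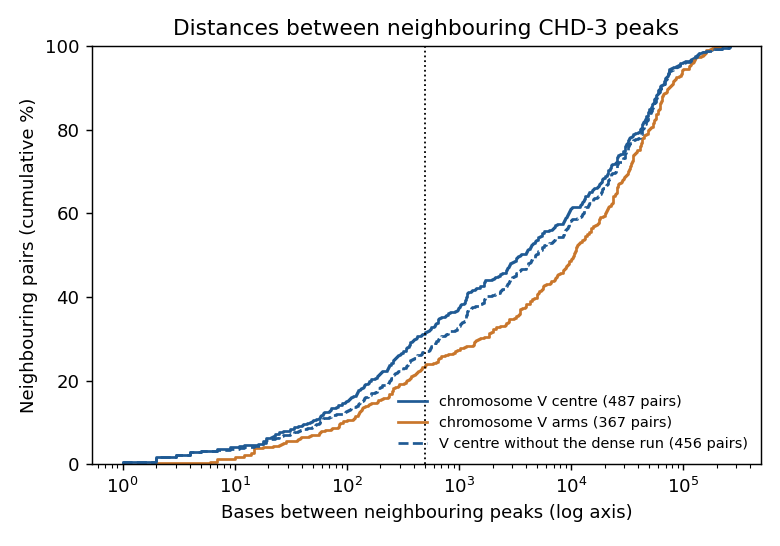
Cumulative percentage of neighbouring pairs (y axis) by the number of bases between their peaks (x axis, log scale) for the chromosome V centre (487 pairs), the centre without the dense run (456, dashed) and the V arms (367), with a dotted line at 500 bp. At 500 bp the curves stand at 31.2%, 26.8% and 23.7%, and they meet at the longest distances.

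Close neighbours were found in both parts of V. In the centre 152 of 487 pairs, 31.2% (27.1 to 35.5%), were less than 500 bp apart, and in the arms 87 of 367, 23.7% (19.4 to 28.4%). Without the dense run the centre had 26.8% (22.7 to 31.1%), which overlaps the arms widely. The median distance was 10.6 kb in the arms against 3.52 kb in the centre, or 4.87 kb without the dense run. It was 5.58 kb in the whole list and 5.98 kb on the X chromosome. There 28.1% and 26.9% of pairs were less than 500 bp apart, so the centre without the dense run was closer to these than the arms were. Joined at 500 bp, the peaks formed 336 regions in the centre and 282 in the arms. Of these, 48 in the centre and 50 in the arms were runs of 2 peaks, and 4 in each were runs of 5 or more. Runs of 3 were 23 in the centre and 8 in the arms. The whole list had 548 runs of 2 and 154 of 3 among 3553 regions, and X had 86 and 22 among 563. Stretches of at least 100 kb without peaks numbered 21 in the arms and covered 29.4% of them, against 28.8% of the centre. The arms differed in this, with 14 stretches and 35.7% on the left and 7 and 20.7% on the right, so the centre lay between them. On the X chromosome the share was 25.9% and in the whole list 21.9%. The longest such stretch of the arms measured 217.1 kb.

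At the lower bound the first member ran from 5932386 to 5932636 (251 bp, score 70.8) and the nearest peak outside from 5845572 to 5846194 (623 bp, score 333.4). At the upper bound the last member ran from 16547109 to 16548622 (1514 bp, score 3094.4, the highest below the tie in the centre). Its midpoint was 2.13 kb inside the bound. The nearest peak outside, 16552727 to 16552920, measured 194 bp and scored 135.1.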

How the data were processed

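The ChIP library and the input library carry the replicate number 2. Chromatin was fixed with 1% formaldehyde for 10 min after grinding and was sheared by sonication, per the labels' protocols. The peaks were called by MACS on WormBase WS220, per the file headers and the source column, and the score is the authors' deposited value per peak, with no named scale. BWA and ce10 are named in the submitters' processing notes. Of versions, filters, calling threshold, control and pooling the sources used here say nothing.

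Members were taken by midpoint. Distances run from the end of a peak to the start of the next. The functions were tested on simulated data with known runs and gaps (Python 3.11.15, pandas 2.3.3, NumPy 2.4.6, SciPy 1.17.1). The alternatives were a score limit at the median of the list, merging at 500 bp, leaving out the dense run, bounds moved by 0.5 Mb and other distances and bin widths.

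Named by rule were the 10 highest scores, the 5 widest peaks, runs of 5 or more peaks, the 5 longest empty stretches, the fullest and emptiest bins and the peaks at the bounds. Members and rules were chosen with earlier results of these data known. Peaks were not matched to genes, since the only gene table used here has coordinates of WBcel235.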

Additional observations from a re-analysis of the deposited data

How the results depend on the processing

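No paired analysis was possible because a single list of peaks, deposited with the ChIP sample, was analysed. No result has a test, so a value was called moved when it left its own 95% interval. The longest empty stretch was called moved when it changed at all, and a count when it changed by more than 1.5 times. For the differences in median width and median score, the interval was that of the centre's median minus the fixed median of the arms. It leaves out the error of the arms and is too narrow, so these differences were called moved too readily. Of 31 alternatives listed at the start for the 6 main results, 19 kept the value, 11 moved it and 1 turned it. With peaks at or above the median score of the list, the density of the centre was 24.4 peaks per Mb, its ratio to the arms 1.496, the share of pairs closer than 500 bp 22.4% and the longest empty stretch 337.0 kb, and the difference in median score turned to -67.8. Fewer peaks, selected on score, enter by construction there, which lowers the density and can only lengthen empty stretches. The ratio sets centre and arms under the same limit, so fewer peaks alone do not fix its direction. It still counts the dense run. Merging at 500 bp gave 31.5 regions per Mb and a difference in median width of 95.5 bp. With each bound moved 0.5 Mb inwards the density ratio was 1.05 and the difference in median score 4.94. Leaving out the dense run as well, chosen after seeing the data and tried on 4 results, gave 1.13 and 10.2. All 4 results stayed within their intervals. The density of the centre could not change by this step, since the moved bound already shut the run out, and was 42.1 peaks per Mb either way. Without the dense run the share of close pairs was 26.8%. It was 37.4% with neighbours counted within 1000 bp and 44.4% within 2000 bp. For the medians of the centre, its fullest bin and its number of runs, 7 alternatives kept the value and 7 moved it. The fullest bin held 37 peaks at 250 kb and 83 at 1000 kb, against 67 at 500 kb. These counts were compared without scaling to bin width, so their labels do not show whether the density of the fullest bin changed. Depth could not be examined.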
